A study of Mus musculus with 6 samples.

Results

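The surface proteins that T cells, macrophages and natural killer (NK) cells read on a tumour cell were followed in TUBO cells, a mouse line established from 1 mammary carcinoma of a BALB-neuT female, at the level of their transcripts. The set consisted of 10 genes, Cd274, Cd47, Cd80, Pvr, Nectin2, Lgals9, Icam1, Fas, Ulbp1 and Raet1e, and its members were every probe annotated to 1 of them. Annotated probes existed for 9 of these genes, 16 probes in all, among 25697 probes for 16561 named genes on the array. Ulbp1 had no probe under its symbol and was not analysed here. The study set cells in mammosphere medium against cells in standard medium, both as adherent layers, with 3 arrays titled TMA and 3 titled TDA. By title and growth protocol, TMA cells were in DMEM-F12 without serum, with basic fibroblast growth factor and epidermal growth factor at 20 ng/ml each, insulin at 5 μg/ml and bovine serum albumin at 0.4%, and TDA cells in DMEM to which fetal calf serum had been added to 20%. The source names give each group the other medium, so values are given for TMA and TDA arrays and it is not settled which medium a direction goes with. No treatment was applied to either group beyond the medium, and no label says whether replicates were separate cultures, so the p-values cover only the spread among these samples, and that spread may be technical.

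Lymphocytes and macrophages weigh activating against inhibitory signals when they contact a cell. PD-L1 (Cd274) binds PD-1 on T cells and restrains them, CD80 binds CD28 and CTLA-4, and CD47 binds SIRPα on macrophages and restrains their uptake of the cell. Nectin-2 and the poliovirus receptor Pvr bind CD226, which activates NK cells and T cells, and Pvr also binds the inhibitory receptor TIGIT. RAE-1 proteins and ULBP1 engage the activating NK receptor NKG2D, ICAM-1 gives leukocytes a hold through the integrin LFA-1, galectin-9 binds TIM-3, and Fas passes the death signal of Fas ligand into the cell.

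Nectin2 was the 1 member gene that passed the test between the groups. Of the 12 member probes bright enough to be tested, 2 passed the threshold, both of them for Nectin2 and both higher on the TMA arrays, by 2.19-fold and 1.96-fold. Over all 12848 tested probes 3.01% passed, and 1.53% of the tested probes were called higher and 1.49% lower on the TMA arrays. Cd47 was higher on every TMA array as well, by 1.75-fold, but did not pass after adjustment. Transcripts for Cd274, Cd80, Icam1 and Raet1e gave signals close to or under the array medians in both groups. In bulk RNA, fewer cells with a transcript and less of it per cell cannot be told apart.

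All arrays came from a single BeadChip, with TMA and TDA arrays in separate positions, so chip position cannot be told apart from group. The mean raw signal per array was 615 to 635 on the TMA arrays, against 560 to 845 on the TDA arrays, the highest being TDA1, while array medians were 280.5 to 287 on TMA, against 270.6 to 309.6 on TDA. The keratin genes Krt8 and Krt18, markers of simple epithelium, gave raw signals of 7628 to 11652 on the TMA arrays, against 5708 to 18321 on the TDA arrays. The leukocyte gene Ptprc gave 197.4 to 270.7 on TMA, against 204.7 to 278 on TDA over its 2 probes, under the array medians. Krt19, a further epithelial keratin, was also under the array medians, at 219.8 to 241.1 on TMA, against 230.6 to 235.5 on TDA. Averaged over the 5 epithelial markers on the array, normalized log2 signal was 11.18, 11.86 and 11.65 on TMA1, TMA2 and TMA3, against 10.93, 10.99 and 11.04 on TDA1, TDA2 and TDA3, so this average, like Nectin2, was higher on every TMA array. Among the 4 tested markers the log2 differences ran from 0.23 to 1.90, the largest being that of the claudin gene Cldn4. The part of these markers in the Nectin2 difference was not tested.

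**Figure D1:**
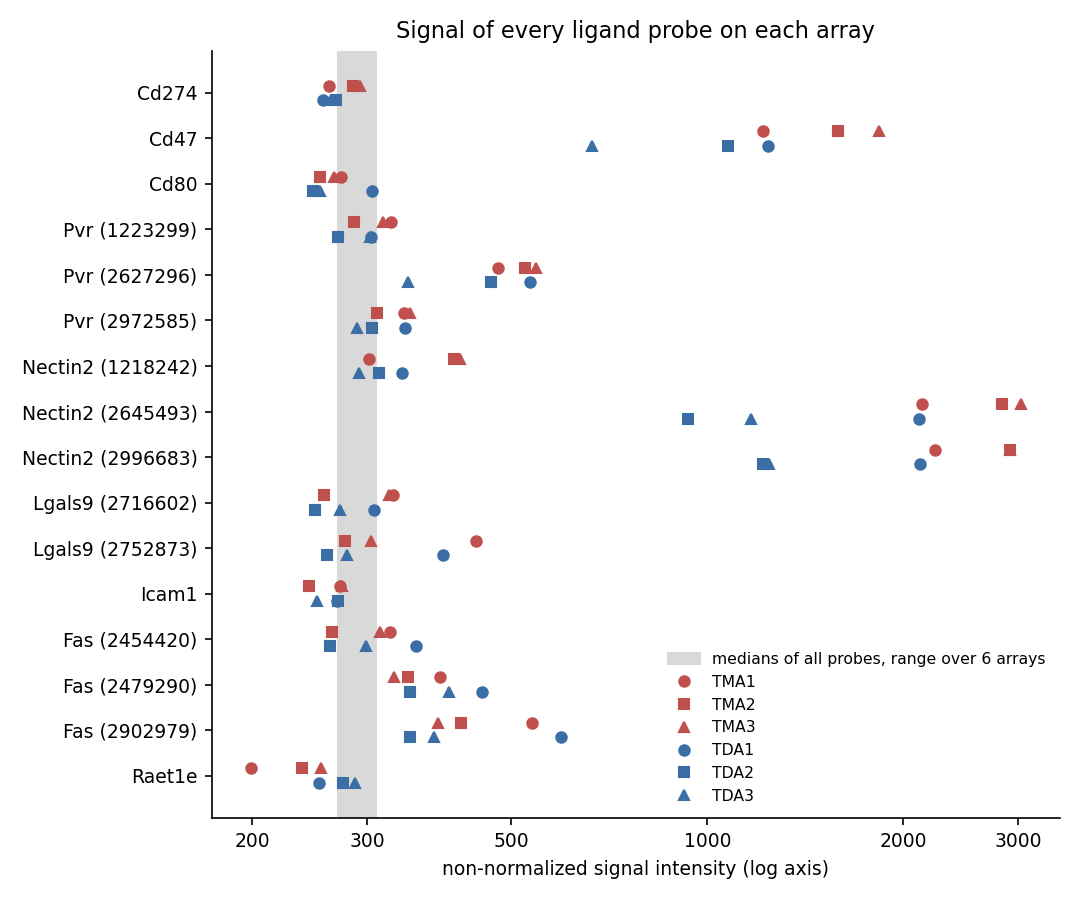
Raw signal intensity (horizontal log axis) of the 16 ligand probes (rows; the number in brackets is the probe's Illumina number where a gene has several) on the 3 TMA arrays (red, upper in each row) and the 3 TDA arrays (blue). The grey band spans the 6 array medians of all probes, 270.6 to 309.6; Cd47 and 2 Nectin2 probes lie far to its right, while Cd274, Cd80, Icam1 and Raet1e lie in or left of it.

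Nectin2, on chromosome 7, encodes a nectin, an adhesion protein of epithelial junctions that is also read by CD226. The probe ILMN_2645493 gave raw intensities of 2138, 2833 and 3036 on TMA1, TMA2 and TMA3, against 2115, 934 and 1169 on TDA1, TDA2 and TDA3. Before normalization TDA1, the brightest array as a whole, thus lay close to TMA1, while the other TDA arrays gave less than any TMA array. After normalization the log2 signals were 10.95, 11.46 and 11.49 on the TMA arrays, against 10.31, 9.80 and 10.41 on the TDA arrays, and every TMA array lay above every TDA array.

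This probe was higher on TMA by 1.13 ± 0.24 log2 units (TMA minus TDA, standard error; limma adjusted p = 0.0278). A second probe for the gene, ILMN_2996683, read 2234, 2920 and 2915 on the TMA arrays, against 2125, 1218 and 1244 on the TDA arrays in raw intensity. Its normalized means were 11.32 ± 0.27 on TMA, against 10.35 ± 0.14 on TDA (log2, SD, n = 3 each), and differed by 0.97 ± 0.21 (standard error; limma adjusted p = 0.0320). These probes read 1 transcript and are not independent of each other. The third, ILMN_1218242, was dim, with 301.9, 408.6 and 416.8 on the TMA arrays, against 339.9, 312.8 and 292.2 on the TDA arrays. Its groups overlapped, through TMA1, and its log2 difference of 0.45 did not pass (limma adjusted p = 0.377).

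The Nectin2 calls depended on several single arrays, and so did calls over all tested probes. Those fell from 387 to 21, 3, 8 and 112 without TMA2, TMA3, TDA1 and TDA3, so the loss is not particular to Nectin2. Without TMA2, TMA3, TDA1 or TDA3 the limma adjusted p of ILMN_2645493 was 0.135, 0.165, 0.107 and 0.0533, and that of ILMN_2996683 was 0.156, 0.170, 0.137 and 0.0624. The log2 differences stayed between 0.94 and 1.30 for the first probe and between 0.87 and 1.12 for the second with any single array left out. With median scaling neither probe passed (limma adjusted p = 0.104 and 0.123), and in the authors' own log2 table ILMN_2645493 missed the threshold (adjusted p = 0.0527) while ILMN_2996683 passed (adjusted p = 0.0450). The plot of Nectin2 and Cd47 by setting shows the size and the call side by side.

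**Figure D2:**
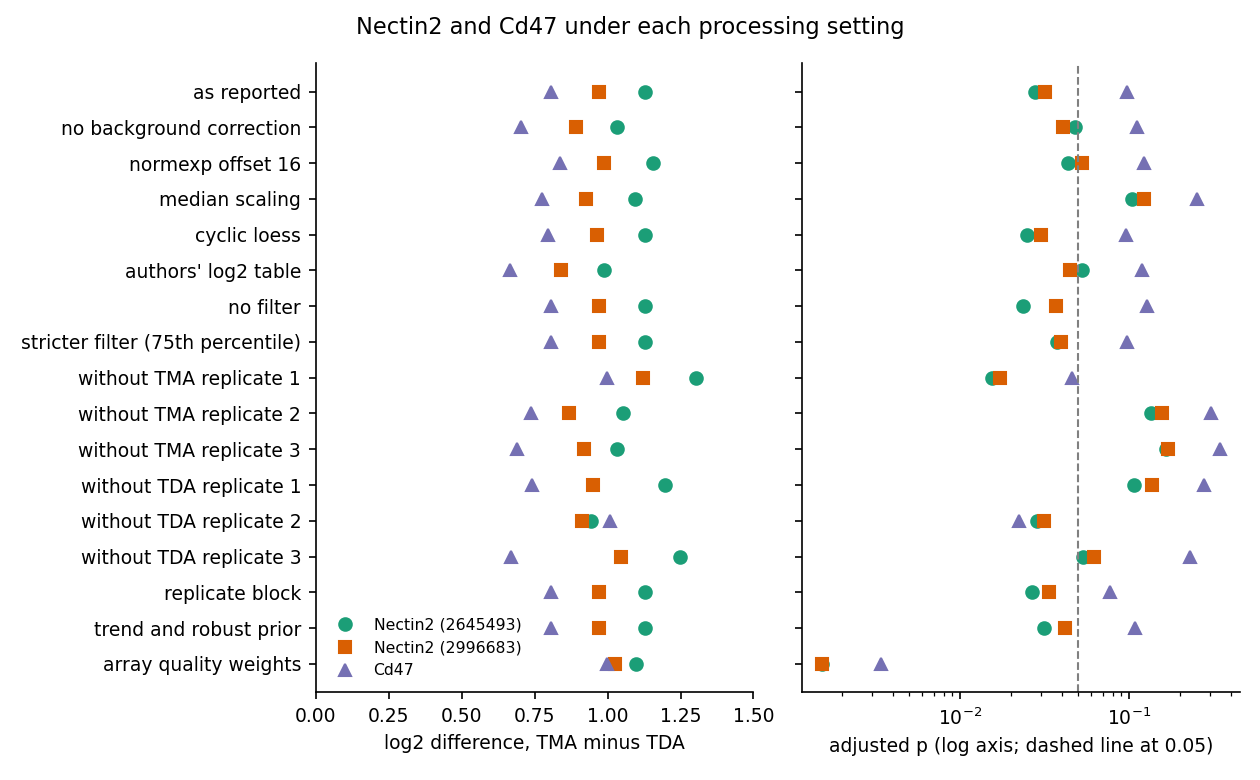
Log2 difference, TMA minus TDA (left), and limma adjusted p on a log axis (right) of both bright Nectin2 probes and the Cd47 probe under the reported processing and 16 alternatives (rows). The differences stay between 0.66 and 1.30 in all rows, while the adjusted p of each probe falls on both sides of the dashed threshold of 0.05.

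The genes whose pattern over the 6 arrays came closest to Nectin2, by the mean absolute difference of log2 signals after each probe was centred on its own mean, were Hyi, Bmf and Odc1 for ILMN_2645493, at 0.061, 0.069 and 0.073. For ILMN_2996683 they were Dlgap4, B2m and Cox7a2l, at 0.059, 0.072 and 0.073. The bright Nectin2 probes had different nearest genes, so the likeness describes a probe and not the gene. B2m encodes the light chain of MHC class I molecules. Its probe in this comparison read 13.08, 13.37 and 13.32 on TMA1, TMA2 and TMA3, against 12.15, 11.98 and 12.40 on TDA1, TDA2 and TDA3 (log2).

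Cd47, on chromosome 16, gave raw intensities of 1218, 1589 and 1838 on TMA1, TMA2 and TMA3, against 1240, 1076 and 665.3 on TDA1, TDA2 and TDA3 from its 1 probe. In raw signal TDA1 exceeded TMA1 slightly. The normalized log2 signals were 10.07, 10.59 and 10.69 on the TMA arrays, against 9.51, 10.05 and 9.37 on the TDA arrays, so the groups parted only by the small gap between TMA1 and TDA2.

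The log2 difference of Cd47 was 0.81, with a 95% confidence interval of 0.27 to 1.34, an unadjusted p of 0.00628 and a limma adjusted p of 0.0971. Among all tested probes 18.5% had an unadjusted p under 0.05. Cd47 passed without TMA1 (log2 difference 0.998, limma adjusted p = 0.0463) and without TDA2 (1.01, adjusted p = 0.0224), the arrays that border the gap. Leaving out the lowest TMA array or the highest TDA array must enlarge the difference. Calls over all tested probes also rose, from 387 to 682 without TMA1 and 658 without TDA2, so these passes add no evidence for Cd47. The same 3 probes, Cd47 and both bright Nectin2 probes, were the member probes whose TMA and TDA arrays did not overlap. Of all tested probes, 11.9% had every TMA array above every TDA array.

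Promoter sequences are shown for Nectin2 and Cd47, the members with the largest differences, and for Icam1 and Lgals9, whose genes are textbook targets of NF-kB and interferon signals. They come from RefSeq on build GRCm38.p6 and run from 250 bases before to 50 bases after an annotated start. RefSeq windows were at hand for 9 of the 10 genes. Capitals mark matches, on either strand, to GGGCGG (the GC box), GGNNNTTCC (a short form of the NF-kB motif), TTCNNNGAA (the GAS element bound by STAT factors) and the interferon response element (GAAA, 2 free bases, GAAA), and no matches to different motifs overlap in these windows. Nectin2 is at chr7:19749524-19749823 on the minus strand, Cd47 at chr16:49855404-49855703 on the plus strand, Icam1 at chr9:21015690-21015989 on the plus strand and Lgals9 at chr11:78984875-78985174 on the minus strand. Cd47 has a second, overlapping window at chr16:49855411-49855710, which is not shown, and its gene record begins upstream of both, at 49851328.
Nectin2: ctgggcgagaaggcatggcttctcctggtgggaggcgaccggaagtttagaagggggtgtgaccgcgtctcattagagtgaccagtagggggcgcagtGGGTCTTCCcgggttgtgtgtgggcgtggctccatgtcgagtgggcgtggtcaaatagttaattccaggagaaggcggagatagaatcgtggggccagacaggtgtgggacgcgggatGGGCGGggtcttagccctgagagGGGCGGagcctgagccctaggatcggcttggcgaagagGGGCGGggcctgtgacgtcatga
Cd47: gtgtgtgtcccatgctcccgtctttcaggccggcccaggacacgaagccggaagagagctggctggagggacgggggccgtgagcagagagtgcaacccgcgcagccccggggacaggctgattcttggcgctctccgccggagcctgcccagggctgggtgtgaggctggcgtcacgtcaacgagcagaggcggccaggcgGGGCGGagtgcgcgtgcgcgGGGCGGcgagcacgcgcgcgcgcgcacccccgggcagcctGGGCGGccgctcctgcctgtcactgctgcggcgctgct
Icam1: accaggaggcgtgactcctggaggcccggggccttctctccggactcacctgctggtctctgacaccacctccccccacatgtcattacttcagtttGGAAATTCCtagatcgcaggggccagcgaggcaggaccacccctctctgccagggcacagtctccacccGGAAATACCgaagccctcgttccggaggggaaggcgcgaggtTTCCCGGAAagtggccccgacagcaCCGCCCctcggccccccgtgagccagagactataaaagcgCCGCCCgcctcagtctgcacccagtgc
Lgals9: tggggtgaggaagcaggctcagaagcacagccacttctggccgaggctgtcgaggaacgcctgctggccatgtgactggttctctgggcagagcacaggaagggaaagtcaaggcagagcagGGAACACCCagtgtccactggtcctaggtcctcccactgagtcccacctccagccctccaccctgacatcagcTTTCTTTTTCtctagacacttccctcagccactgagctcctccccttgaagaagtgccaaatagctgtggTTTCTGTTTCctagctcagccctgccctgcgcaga

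With the start base counted as 0, the Nectin2 window held GC boxes beginning at -34, -11 and 27 and an NF-kB match at -152, and 62.7% of its bases were G or C. The Cd47 window, with 74% G or C, held GC boxes beginning at -48, -28 and 12 and no match to the other 3 motifs. The Icam1 window held a GAS match at -42, NF-kB matches at -153 and -84, and GC boxes at -17 and 23. The match at -153 fits the motif on both strands. The Lgals9 window held interferon response matches at -55 and 15 and an NF-kB match at -128. Of 32851 RefSeq windows of this length, 35.7% held a GC box, 18.5% the NF-kB form, 8.3% a GAS element and 3.44% an interferon response element. A match describes these letters and not a bound site.

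Pvr, the close relative of Nectin2 that lies on the same chromosome, had 3 probes. ILMN_2627296 read 477.1, 525.7 and 545.1 on TMA1, TMA2 and TMA3, against 534.1, 465.9 and 346.6 on TDA1, TDA2 and TDA3. TDA3 was the low array and the groups overlapped after normalization. Its log2 difference was 0.38, with a 95% confidence interval of -0.12 to 0.88 (limma adjusted p = 0.421), and it was 0.19 without TDA3. The other probes differed by 0.18 and 0.22 (adjusted p = 0.692 and 0.620), so the 3 probes leaned one way and none passed.

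**Figure D3:**
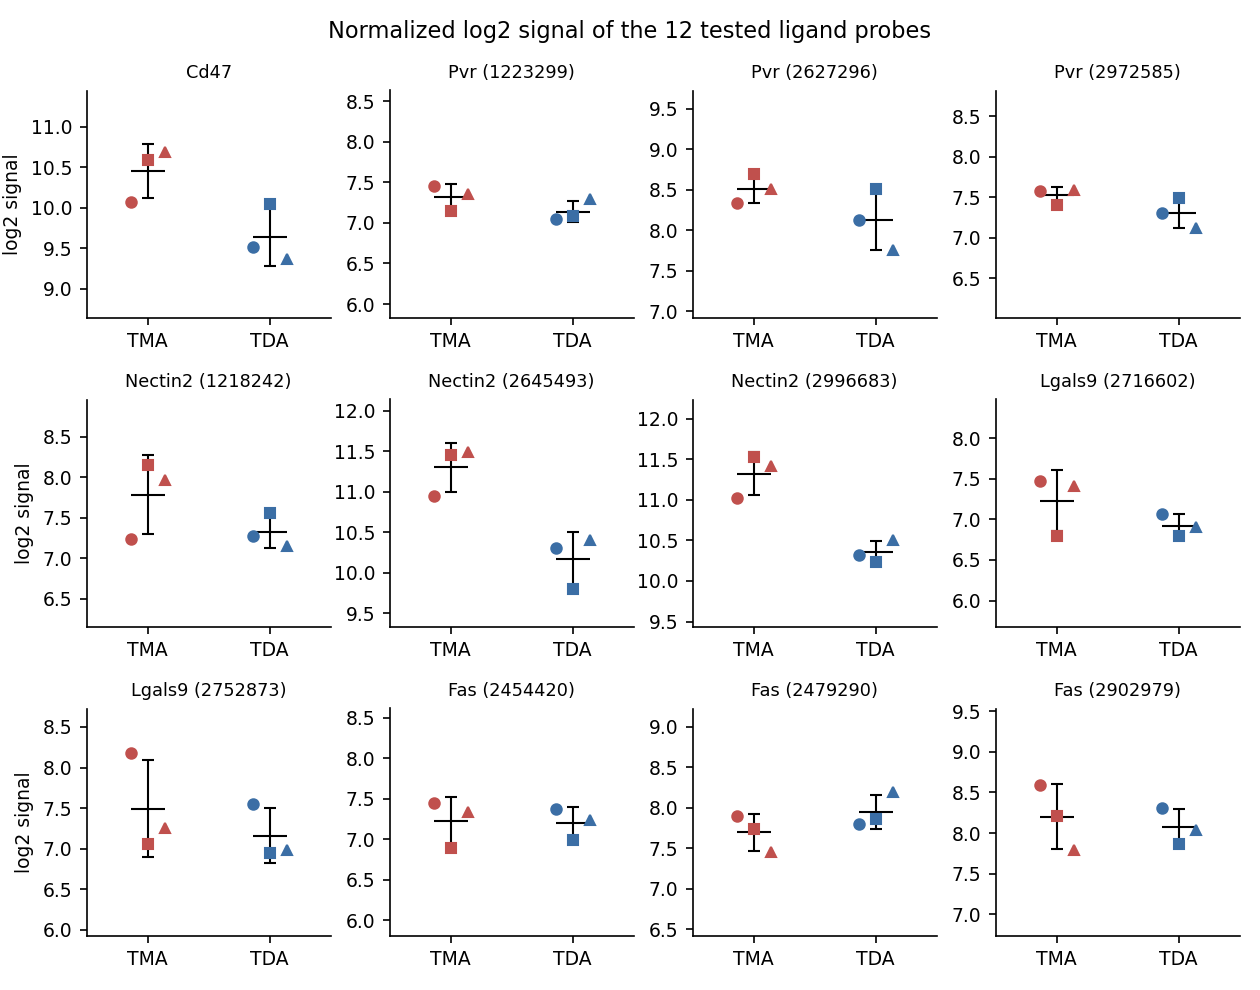
Normalized log2 signal (vertical axis, the same span in each panel) of the 12 tested ligand probes on the TMA arrays (red, left) and the TDA arrays (blue, right), with circles, squares and triangles for replicates 1, 2 and 3 and black bars for the mean ± SD of 3 arrays. The groups part without overlap in the panels of Cd47 and both bright Nectin2 probes and overlap in the other 9.

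Fas, the death receptor, also had 3 tested probes, and they did not lean one way. ILMN_2902979 read 538.7, 418.4 and 385.3 on TMA1, TMA2 and TMA3, against 596.6, 349.7 and 380.8 on TDA1, TDA2 and TDA3, with the high values on the first array of each group. Its log2 difference was 0.13, with a 95% confidence interval of -0.39 to 0.65 (limma adjusted p = 0.841). ILMN_2479290, at 329.8 to 388.9 on the TMA arrays, against 349.2 to 450.1 on the TDA arrays, had a log2 difference of -0.25 (adjusted p = 0.593), and ILMN_2454420 one of 0.03 (adjusted p = 0.966). The difference of ILMN_2454420 changed sign without TMA1, TMA3 or TDA2, and that of ILMN_2902979 without TMA1.

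Lgals9, which encodes galectin-9, was read by 2 probes near the lower limit for testing. ILMN_2752873 gave 441.5, 277.9 and 304.4 on TMA1, TMA2 and TMA3, against 392.3, 260.2 and 279.3 on TDA1, TDA2 and TDA3. Here too TMA1 and TDA1 were high within their groups, and the groups overlapped. The log2 differences were 0.33 for this probe and 0.31 for ILMN_2716602, with 95% confidence intervals of -0.31 to 0.97 and -0.19 to 0.80 (limma adjusted p = 0.618 and 0.529). Without TMA1 the first difference was -0.01.

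For Cd274, Cd80, Icam1 and Raet1e, each read by 1 probe, the mean log2 signal over all arrays was under the median of all probes and no test was made beside the others. Cd274, the PD-L1 gene on chromosome 19, read 262.2, 285.3 and 292.4 on TMA1, TMA2 and TMA3, against 257.1, 269.3 and 263.8 on TDA1, TDA2 and TDA3 in raw intensity. The spread of these 6 values is small, and they overlap with the 6 array medians. When the filter was lifted and all 25697 probes were tested, the log2 difference of Cd274 was 0.23 (limma adjusted p = 0.790).

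Cd80 gave 273.8, 253.9 and 267.2 on the TMA arrays, against 305.5, 247.7 and 254.3 on the TDA arrays, with a log2 difference of 0.03 without the filter (limma adjusted p = 0.981). Icam1 gave 272.7, 244.6 and 275.1 on the TMA arrays, against 270.2, 270.6 and 251.9 on the TDA arrays, with a log2 difference of 0.03 (adjusted p = 0.977). In both genes the groups overlapped. Without detection p-values it could not be told whether these transcripts were present, and the log2 scale with its offset understates changes of dim probes.

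Raet1e, on chromosome 10, gave raw intensities of 198.8, 238.6 and 254.7 on TMA1, TMA2 and TMA3, against 253.5, 275.5 and 287.8 on TDA1, TDA2 and TDA3. It had the most negative difference among the member probes, with a log2 difference of -0.55 without the filter (unadjusted p = 0.0499, limma adjusted p = 0.423). TMA3 was above TDA1, so the raw groups overlapped. Raet1 genes are near-identical copies whose number differs between mouse strains, so which of them the probe read is uncertain.

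Over all 16 member probes, 14 had a log2 difference above 0 and the median was 0.23, where 49.6% of all 25697 probes were above 0 and their median was 0.00. Probes of 1 gene share a target, and 11 of the 16 belong to Pvr, Nectin2, Lgals9 and Fas. The members were chosen with earlier results of these data known, so this count is not a test. The gap between probes of 1 gene was widest in Nectin2, from 0.45 for the dim probe to 1.13, and narrowest in Lgals9, from 0.31 to 0.33.

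**Figure D4:**
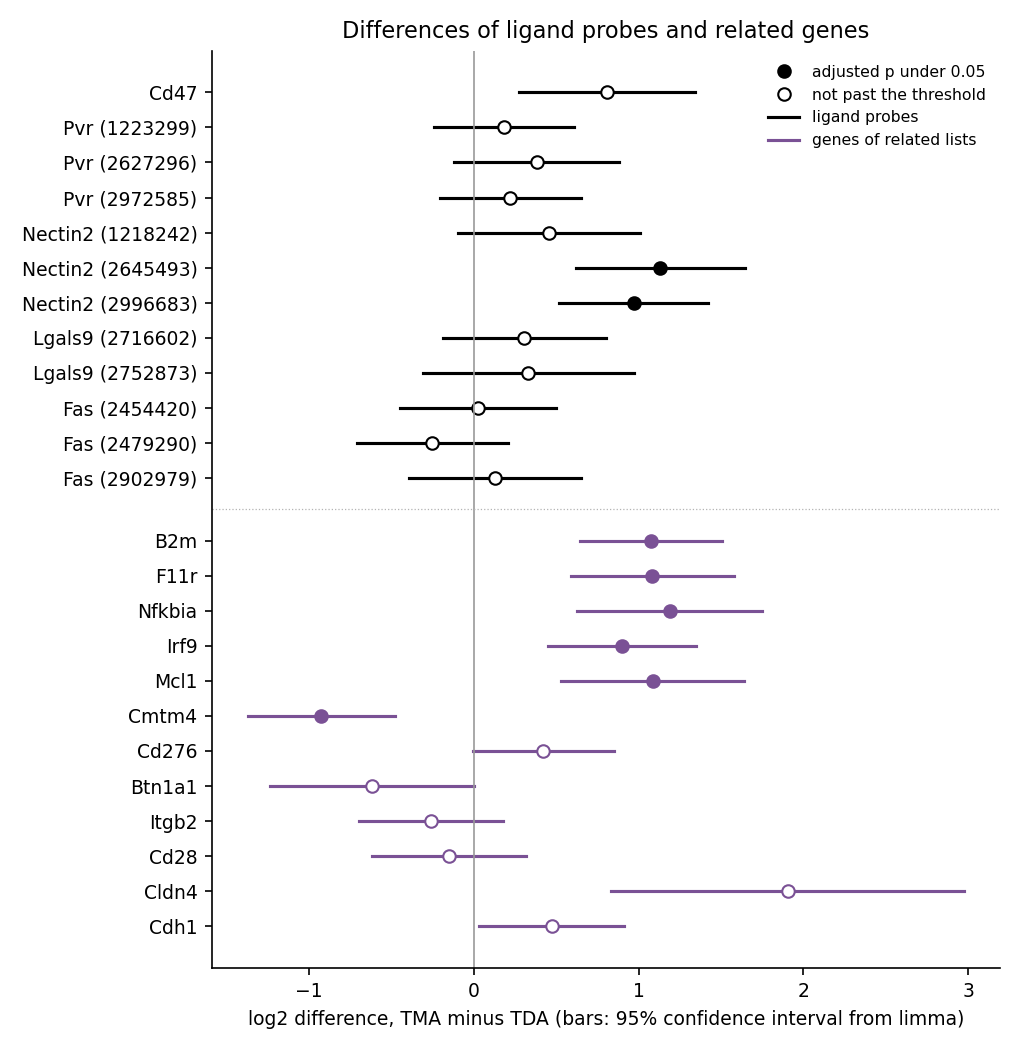
Log2 difference, TMA minus TDA (horizontal axis), with its 95% confidence interval from limma, for the 12 tested ligand probes (black, above the dotted line). Below it are the genes of related lists picked by the naming rule, by the probe with the smallest p (purple). List genes named outside that rule are not drawn. Filled points passed an adjusted p of 0.05. Among the ligands the 2 bright Nectin2 probes are filled, at 0.97 and 1.13, and among the related genes B2m, F11r, Nfkbia, Irf9 and Mcl1 are filled on the right and Cmtm4 on the left.

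Genes that work beside these ligands were read from 8 further lists, 6 of them outside the markers of cell identity. These lists were chosen with earlier results of these data known, so the share of their genes above 0 is not a test. As for Nectin2, calls lost below without TMA2, TMA3, TDA1 or TDA3 went with a fall of calls over all tested probes. Over all tested genes, 1.82% had a probe past the threshold that was higher on the TMA arrays, and 1.83% had one that was lower. The median log2 difference of all tested probes was -0.0040. A list of further ligands and receptors around the B7 and TNF families had 5 tested genes. Limma called 0 of them, with 1 at an unadjusted p under 0.05. Their median log2 difference was -0.11 by the brightest probe of each gene. The TNF-family ligands of this list were too dim to be tested, so the count does not cover them. The butyrophilin gene Btn1a1 and the B7 family gene Cd276 differed by -0.62 and 0.42 (limma adjusted p = 0.269 and 0.281). Without TDA2, its highest array in raw signal at 487.6, Btn1a1 differed by -0.27, and with array quality weights likewise by -0.27. Cd276 read 686.7, 650 and 764.1 on TMA1, TMA2 and TMA3, against 790.8, 542.2 and 439.6 on TDA1, TDA2 and TDA3.

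Among 8 tested genes of signals to and from macrophages, B2m rose, 0 fell and the median was 0.29. Both of its tested probes passed, with log2 differences of 1.07 and 1.08 (limma adjusted p = 0.0178 and 0.0195), with raw intensities of 9563, 10132 and 11146 on TMA1, TMA2 and TMA3, against 7338, 4620 and 4642 on TDA1, TDA2 and TDA3 for the first. The dim B2m probe ILMN_2670561, at 245.9 to 283.9 on TMA, against 266.9 to 296.4 on TDA, was not tested with the others and differed by -0.18 (adjusted p = 0.855 without the filter). Sirpa, the gene of the CD47 receptor, differed by -0.39 by its brighter probe (adjusted p = 0.556). Without TMA2, TMA3 or TDA1 the call of B2m was lost, with adjusted p up to 0.122.

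Among 10 tested NK-cell ligands, nectins and adhesion genes, F11r rose, 0 fell and the median was 0.05. F11r encodes the junctional adhesion molecule JAM-A, which, like ICAM-1, binds LFA-1. Its raw intensities were 731.3, 1088 and 961 on TMA1, TMA2 and TMA3, against 644.3, 485 and 445.1 on TDA1, TDA2 and TDA3, with a log2 difference of 1.08 (limma adjusted p = 0.0287). Its call was lost without TMA2, TMA3, TDA1 or TDA3, with adjusted p up to 0.146. The relatives Nectin3 (by its brightest probe) and Nectin4 differed by -0.42 and -0.17 (adjusted p = 0.611 and 0.758). The other tested Nectin3 probes differed by -0.16 and -0.03 (limma adjusted p = 0.750 and 0.966). H2-T23, which encodes the Qa-1 molecule read by the NK receptor NKG2A and was chosen after its values were seen, differed by 1.04 and 1.20 in its 2 probes and just missed the threshold (adjusted p = 0.0551 for both). The first of them, ILMN_2777471, passed without TDA3, its highest TDA array after normalization (limma adjusted p = 0.0384). It also passed under quality weights for the arrays (adjusted p = 0.0030), and the second, ILMN_1223179, passed without the filter (adjusted p = 0.0450). Probes for such class I genes may read related copies. Other list genes came near the threshold as well. In this list Ceacam1 differed by 1.10 and 0.93 by probe (limma adjusted p = 0.0547 and 0.0937). In the other lists Socs3 differed by 0.94 and Csf1 by 0.90 (limma adjusted p = 0.0548 and 0.0605).

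Of 15 tested interferon, STAT and NF-kB signalling genes, 2 rose and 0 fell. By the brightest probe of each gene the median was 0.35 and 14 of 15 were above 0. Of all 25697 probes, dim ones included, 49.6% were above 0, which is an unlike set. With the list chosen after earlier results were known, this count is not a test. Several of these differences were close to 0, and other tested probes of some of the same genes were below 0. Nfkbia, the NF-kB inhibitor, rose by 1.19 (limma adjusted p = 0.0330), with raw intensities of 2827, 2644 and 3985 on the TMA arrays, against 2166, 1004 and 1518 on the TDA arrays. Irf9, a subunit of the interferon-activated complex ISGF3, rose by 0.90 in 1 probe (adjusted p = 0.0412) and differed by 0.39 in a second probe, which did not pass (adjusted p = 0.492). The first Irf9 probe had a mean log2 signal of 7.88 on TMA, against 6.98 on TDA, so it passed the filter through its TMA arrays, and without the filter its adjusted p was 0.0511. Nfkbia missed the threshold once TMA2, TMA3 or TDA1 was left out, with adjusted p up to 0.182, and so did Irf9 with any array but TDA2 left out, with adjusted p up to 0.174.

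Of 11 tested genes of PD-L1 turnover and ligand shedding, 0 rose and 1 fell, with a median of 0.22. That gene was Cmtm4, which like its relative Cmtm6 keeps PD-L1 protein from degradation. It read 311.4, 316.2 and 322.9 on TMA1, TMA2 and TMA3, against 670.8, 374.9 and 441.4 on TDA1, TDA2 and TDA3, without overlap. Its 2 probes had log2 differences of -0.93 and -0.80 (limma adjusted p = 0.0356 and 0.0450), while Cmtm6 differed by 0.36 (adjusted p = 0.341). The first probe passed without TDA2 and missed the threshold with any other array left out, with adjusted p up to 0.165, and the second missed it without the filter (adjusted p = 0.0700).

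Of 9 tested genes of the death pathway below Fas, 1 rose and 0 fell, with a median of 0.09. Mcl1, which encodes a BCL2-family protein that protects mitochondria, rose by 1.09 (limma adjusted p = 0.0434), with 1630, 2351 and 2144 on the TMA arrays, against 1372, 1249 and 701.6 on the TDA arrays. Its call was lost without TMA2, TMA3, TDA1 or TDA3, with adjusted p up to 0.197.

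The receptors that read these ligands, together with leukocyte markers, formed a list of 20 genes, of which 16 were on the array and 3 were bright enough to be tested. Limma called 0 of these, with 0 at an unadjusted p under 0.05, the smallest p belonging to the integrin gene Itgb2 at -0.26 and the CD80 receptor gene Cd28 at -0.15 (adjusted p = 0.551 and 0.783). Summed over the 16 genes, raw intensity was 4042 to 4477 on the TMA arrays, against 3920 to 4524 on the TDA arrays, with the groups overlapping. Of 4 tested epithelial markers limma called 0, with 2 at an unadjusted p under 0.05. The claudin gene Cldn4 read 4639, 24242 and 12495 on TMA1, TMA2 and TMA3, against 3760, 4637 and 2075 on TDA1, TDA2 and TDA3, with a log2 difference of 1.90 (adjusted p = 0.0576), and the E-cadherin gene Cdh1 differed by 0.47 (adjusted p = 0.231). The differences of Krt8 and Krt18 were 0.23 and 0.29, so 4 of 4 tested markers were above 0, with a median of 0.38. Cldn4 came past the threshold with TMA1 left out (limma adjusted p = 0.00489) or TDA2 left out (adjusted p = 0.0102). TMA1 was its lowest TMA array and TDA2 its highest TDA array, so leaving either out must enlarge its difference. Cldn4 also passed with no filter (adjusted p = 0.0338) and under quality weights for the arrays (adjusted p = 0.000585). Nectin-2 and JAM-A, like the claudin and E-cadherin, are parts of epithelial junctions. Whether their differences have a common source was not tested.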

How the data were processed

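Per the labels' protocols, total RNA came from a Trizol extraction and was labelled the standard Illumina way. The deposited intensity table holds a single value without normalization for each probe on each array and lists no detection p-values. A second deposited table holds log2 values normalized between arrays by the authors, how being not given in the sources used here. No background had been subtracted, since the lowest intensities were 147.5 to 174.5.

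Intensities were corrected with normexp (offset 50), quantile normalized and taken to log2 in limma 3.58.1 under R 4.3.3. Groups come from the titles. Probes with a mean log2 signal above the median of all probes, 7.012, were tested: 12848 of 25697. The comparison was limma's two-sided moderated test (lmFit, eBayes), and p-values were adjusted by Benjamini-Hochberg across the 12848 tested probes, with calls at 0.05. Residual and prior degrees of freedom were 4 and 8.14. It was tested on simulated data. Fold values are on the log2 scale with the offset.

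Symbols came from the platform annotation, and 1851 probes were unnamed here. The Entrez identifiers of 23830 of the 23846 named probes matched the RefSeq table, and 0 symbols differed. All member genes are named, though some of their probes appear without an identifier. From each related list up to 4 genes past the threshold with the largest differences were named, and in lists with none past it the 2 genes of smallest p. Krt8, Krt18, Krt19, Ptprc, Sirpa, Nectin3, Nectin4, Cmtm6, H2-T23, Ceacam1, Socs3 and Csf1 were named outside this rule. The members and lists were chosen with earlier results of these data known. Alternatives were the authors' log2 table, cyclic loess, median scaling, intensities without background correction, an offset of 16, a 75th percentile filter, no filter, each array left out, a replicate block, a trend and robust prior, and array quality weights. The number of arrays limits the precision. Figures were drawn with matplotlib 3.10.9.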

Additional observations from a re-analysis of the deposited data

How the results depend on the processing

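The count of 387 tested probes past the threshold was 135 in the authors' table, 198 without background correction, 129 with median scaling, 232 with the 75th percentile filter and 1906 with array quality weights, and 3 to 682 with 1 array left out: 682 without TMA1, 21 without TMA2, 3 without TMA3, 8 without TDA1, 658 without TDA2 and 112 without TDA3. The count of 2 member probes was 1 with an offset of 16, 0 with median scaling in limma (3 at unadjusted p under 0.05), 1 in the authors' table and 0 to 3 with 1 array left out, being 0 without TMA2, TMA3, TDA1 or TDA3 (3 or 4 at unadjusted p under 0.05) and 3 without TMA1 or TDA2. The count of 6 genes over the related lists was 1 in the authors' table, 1 without background correction, 0 with median scaling in limma (16 at unadjusted p under 0.05), 3 with the stricter filter, 17 with array quality weights and 0 to 10 with 1 array left out, being 0 without TMA2, TMA3 or TDA1, 3 without TDA3 and 10 without TDA2. Cd47 also passed with array quality weights (adjusted p = 0.00342). With 1 array left out, differences turned in sign for Lgals9 ILMN_2752873 (-0.011 to 0.55), Fas ILMN_2454420 (-0.083 to 0.19) and Fas ILMN_2902979 (-0.068 to 0.33), and with array weights for the Fas probes (-0.066 and -0.15). In 167 of 189 recomputed member differences the direction and the call were as reported. This count includes settings that cannot change the difference and probes far from the threshold, so it does not measure stability. Each bright Nectin2 probe lost its call in 6 of 16 alternatives. The cause of these changes was not tested. The replicate numbers shared by the groups were used as a replicate block: 518 probes passed, with 2 member probes and 11 list genes, and the block brought Cldn4 (adjusted p = 0.00566) and H2-T23 ILMN_2777471 (adjusted p = 0.0406) past the threshold. Deviations of same-numbered arrays correlated across probes at 0.126, 0.0133 and 0.0269, so the numbers were not taken to pair the arrays. Without detection p-values the dim members have no lower limit of signal.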
